A study of Mus musculus with 20 samples.

Results

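The acinar genes described here are 32 transcripts of the exocrine pancreas, measured in islet preparations of mice. They were taken by gene symbol from a table of 26211 genes, and all 32 were in the table and passed the filter on low values, together with 17482 genes in all. They comprise 26 secreted enzymes, 3 proteins of the secretory granule (Zg16, Gp2 and Sycn) and 3 transcription factors (Ptf1a, Rbpjl and Bhlha15). The study compared islets of P2Y14-knockout mice with islets of wild-type mice, 10 libraries each, all of the mixed strain C57BL/6 x 129S6. P2ry14 encodes P2Y14, a receptor that senses extracellular UDP-sugars and signals through G proteins. Islets hold the hormone-secreting cells of the pancreas and were freed by Liberase digestion, picked under a stereomicroscope and kept overnight in RPMI-1640 with fetal bovine serum before RNA was taken for sequencing. The labels give neither the age of the mice nor the deleted part of P2ry14, and do not tie libraries to animals, so p-values measure the spread between these libraries.

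Acinar cells surround the islets and make the digestive enzymes of the pancreas, most of them as inactive zymogens that are packed into granules and released into the ducts. Their enzyme genes are switched on by the PTF1 complex, in which Ptf1a, a basic helix-loop-helix factor, pairs with an E protein and with Rbpjl, the acinar relative of the Notch effector Rbpj. Bhlha15, also called MIST1, is a helix-loop-helix factor of secretory cells that organises granules and the secretory machinery. The PTF1 complex reads an E-box (CANNTG) and, at a short distance from it, a TC box (TTTCCC).

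The promoters below show how these letters fall in genes that the results turn on. Cpa1, Ctrb1 and Cel hold the E-box and TC box pair, Rbpjl encodes a subunit of the complex, and Amy1 and Amy2a1 are the amylases described further on. Each window runs from 250 bases before to 50 bases after the annotated start, in RefSeq's annotation of build GRCm38.p6, 5′ to 3′ along the gene's strand. Capitals mark CAGCTG, a form of the E-box, a further form CACCTG, and the TC box TTTCCC, each on either strand. Read from the other strand, CACCTG is written CAGGTG and the TC box is written GGGAAA. By this annotation, the CAGCTG copies of Cpa1 and the CAGCTG of Amy2a1 lie in the 50 bases after the start, not before it.
Cpa1, chr6:30638968-30639267, plus strand: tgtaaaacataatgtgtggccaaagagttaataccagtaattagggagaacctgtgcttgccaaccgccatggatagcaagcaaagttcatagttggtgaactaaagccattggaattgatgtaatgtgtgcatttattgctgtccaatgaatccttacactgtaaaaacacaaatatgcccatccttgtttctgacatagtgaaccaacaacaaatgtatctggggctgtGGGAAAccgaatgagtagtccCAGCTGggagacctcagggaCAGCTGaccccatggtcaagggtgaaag
Ctrb1, chr8:111690961-111691260, minus strand: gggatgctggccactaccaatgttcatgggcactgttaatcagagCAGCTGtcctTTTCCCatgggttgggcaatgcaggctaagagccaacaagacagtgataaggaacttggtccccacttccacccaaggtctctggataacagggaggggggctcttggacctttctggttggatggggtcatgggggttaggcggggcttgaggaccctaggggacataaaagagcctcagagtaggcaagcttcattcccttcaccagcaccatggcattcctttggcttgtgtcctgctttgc
Cel, chr2:28563354-28563653, minus strand: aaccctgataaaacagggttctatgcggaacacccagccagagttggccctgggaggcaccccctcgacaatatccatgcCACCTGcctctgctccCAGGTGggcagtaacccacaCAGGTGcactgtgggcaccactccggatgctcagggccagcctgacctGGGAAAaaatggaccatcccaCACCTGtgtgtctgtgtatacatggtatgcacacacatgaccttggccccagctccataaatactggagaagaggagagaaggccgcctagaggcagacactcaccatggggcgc
Rbpjl, chr2:164402944-164403243, plus strand: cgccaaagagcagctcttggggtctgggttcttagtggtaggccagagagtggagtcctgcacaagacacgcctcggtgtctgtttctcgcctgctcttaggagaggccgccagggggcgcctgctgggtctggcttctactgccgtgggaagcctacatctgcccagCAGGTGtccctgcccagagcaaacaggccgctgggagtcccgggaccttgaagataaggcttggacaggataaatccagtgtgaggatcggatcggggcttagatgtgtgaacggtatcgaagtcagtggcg
Amy2a1, chr3:113532379-113532678, minus strand: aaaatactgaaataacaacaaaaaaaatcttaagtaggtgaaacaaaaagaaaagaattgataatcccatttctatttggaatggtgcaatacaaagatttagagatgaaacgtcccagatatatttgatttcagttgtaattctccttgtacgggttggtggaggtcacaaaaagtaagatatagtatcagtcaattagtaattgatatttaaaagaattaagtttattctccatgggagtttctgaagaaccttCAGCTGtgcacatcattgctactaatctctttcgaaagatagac
Amy1, chr3:113577701-113578000, minus strand: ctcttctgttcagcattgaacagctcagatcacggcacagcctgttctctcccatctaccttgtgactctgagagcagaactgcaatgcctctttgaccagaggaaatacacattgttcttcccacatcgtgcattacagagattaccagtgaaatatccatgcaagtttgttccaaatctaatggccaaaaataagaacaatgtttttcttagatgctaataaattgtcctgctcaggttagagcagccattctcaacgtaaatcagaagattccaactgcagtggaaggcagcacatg
Amy1 (second annotated start), chr3:113574713-113575012, minus strand: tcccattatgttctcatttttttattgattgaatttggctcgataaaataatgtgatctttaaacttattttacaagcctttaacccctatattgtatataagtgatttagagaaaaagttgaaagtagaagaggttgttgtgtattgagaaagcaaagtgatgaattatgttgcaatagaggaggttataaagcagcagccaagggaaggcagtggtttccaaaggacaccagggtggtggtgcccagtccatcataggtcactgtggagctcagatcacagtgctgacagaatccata

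RefSeq gave promoters for 27 of the 32 genes. The pair was counted as an E-box and then a TC box, in this order along either strand, with at most 20 bases between them. It stood in 5 of these 27 genes (18.5%), namely Cel, Cela1, Cpa1, Ctrb1 and Prss1, against 2.38% of 32851 mouse promoters of this length. The opposite order was not counted. CACCTG stood in 15 of 27 (55.6%, against 20.2% of all promoters), CAGCTG in 7 (25.9%, against 16.3%) and TTTCCC alone in 9 (33.3%, against 25.2%). CAGCTG and CACCTG are both forms of CANNTG, so a match to either can also be part of a pair. Neither Amy1 window held any of the 3 hexamers. A match is a run of letters and was not tested as a site.

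The libraries held 34520628 to 199847246 reads over genes in knockout and 53766074 to 168991840 in wild type. P2ry14 had 0 to 113.5 normalized reads in knockout libraries and 79.7 to 262.1 in wild-type libraries, and 8 of 10 knockout libraries lay below every wild-type library. Knockout libraries 2 and 10, at 113.5 and 86.0, lay in the wild-type range, and P2ry14 differed by −1.97 on the log2 scale, knockout over wild type (SE 0.59, adjusted p = 0.244 by limma and 0.0144 by DESeq2). A permutation test of the difference in mean normalized reads, on this gene alone, gave an unadjusted p of 0.0001. Wild-type libraries carry the numbers 11 to 20 in the deposited table and knockout libraries 1 to 10, and these are used below. Beta cell markers, Ins1 and Ins2 among them, were read in every library, with a summed level of 15490431 to 38243484 in knockout and 14833168 to 37052392 in wild type. Most of this sum was Ins2, with a mean of 26673072 in knockout and 23707662 in wild type. Of the 10 markers, 6 had negative log2 fold changes, knockout over wild type, and 4 positive (median −0.16). None of them had an adjusted p under 0.05 by limma with genotype only. A normalized read is a gene's read count divided by the library's DESeq size factor, as the authors deposited it. In bulk RNA, fewer acinar cells and less acinar RNA per cell cannot be told apart.

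Acinar transcripts made up a large and very uneven part of these islet libraries. The 26 secreted enzymes took 8.91%, 26.0% and 35.2% of reads over genes (lowest, median and highest of 10 libraries) in knockout and 6.81%, 24.0% and 34.6% in wild type. The ranges overlapped almost entirely, with knockout library 5 and wild-type library 12 lowest, and knockout libraries 6 and 10 and wild-type library 13 highest. The amylases, which split starch, held the largest part, at 4.73% to 17.2% in knockout and 2.95% to 13.5% in wild type. The lipid-digesting group followed at 1.07% to 5.94% in knockout and 1.05% to 5.78% in wild type. The 3 granule proteins together took at most 0.705% in knockout and 0.676% in wild type. The 3 transcription factors together took only 0.00245% to 0.00848% in knockout and 0.00214% to 0.00920% in wild type.

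**Figure D1:**
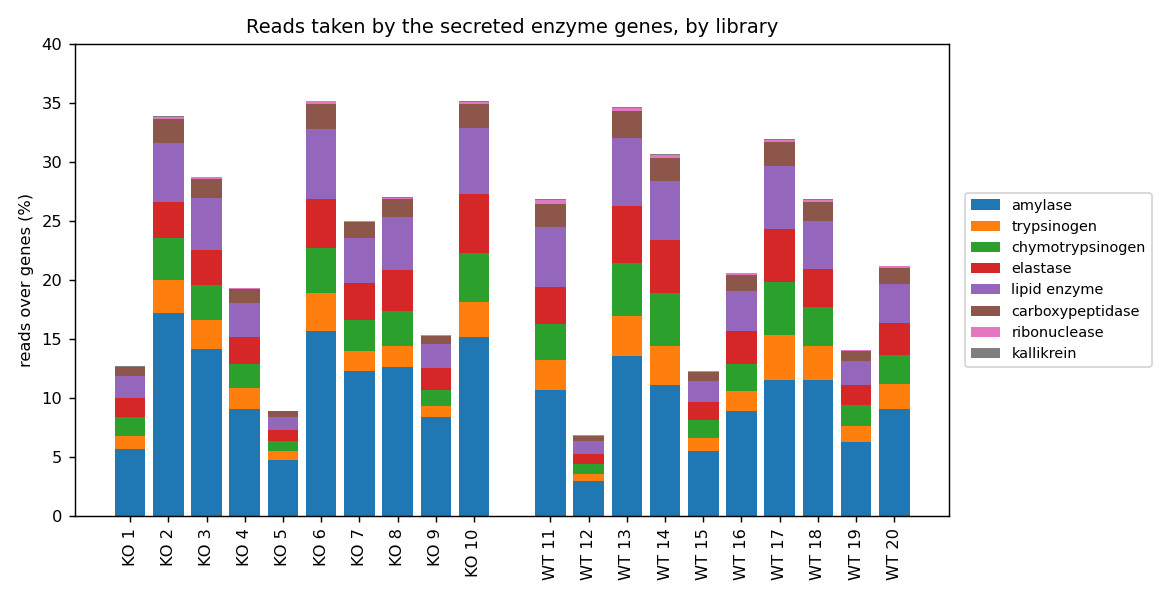
Percent of reads over genes taken by the 26 secreted enzyme genes in each library, knockout at the left and wild type at the right, stacked by enzyme class. Totals run from 8.91% to 35.2% in knockout and from 6.81% to 34.6% in wild type, with amylase the largest class in every library.

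**Figure D2:**
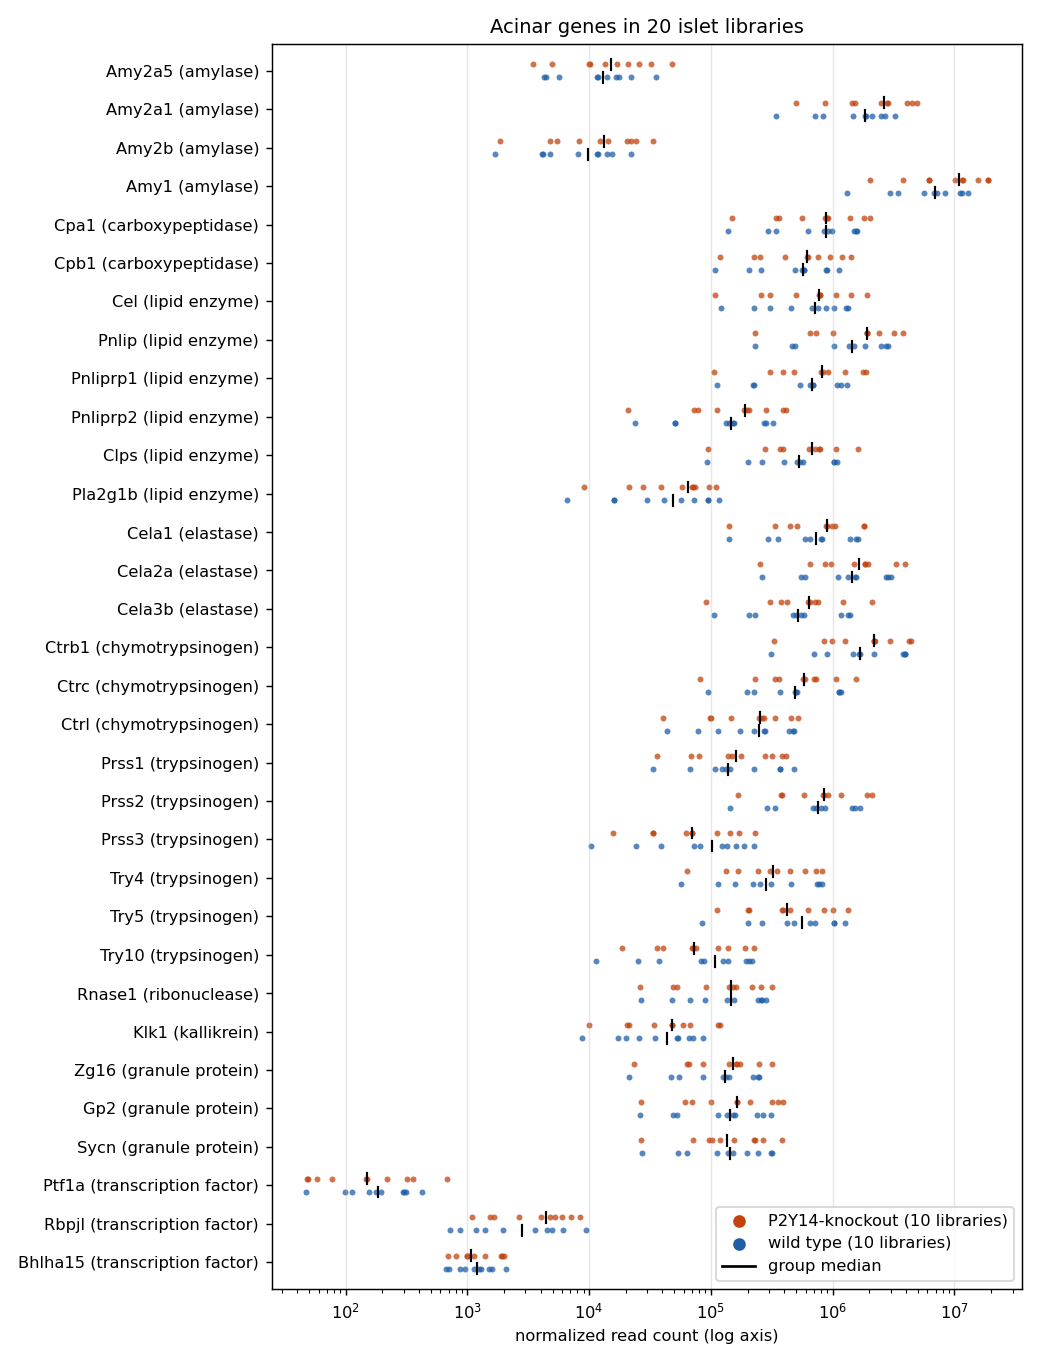
Normalized read count (log axis) of the 32 acinar genes in each library, with knockout above wild type in every row and the group median as a black bar. Knockout and wild-type points overlap for all 32 genes, and the transcription factors at the bottom lie far below the enzymes.

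Among the enzymes of starch digestion, Amy1 (ENSMUSG00000074264) had the highest level of all 32 genes, also per kilobase. It had 2008181, 10862714 and 18978366 normalized reads (lowest, median, highest of 10) in knockout libraries and 1309016, 6978319 and 12851195 in wild-type libraries. The groups overlapped, with 3 knockout libraries above every wild-type library and 1 wild-type library below every knockout library. Amy2a1 (ENSMUSG00000070360), a pancreatic amylase, had 496759.6, 2649364 and 4880028 in knockout and 339583, 1853145 and 3240805 in wild type, again with 3 knockout libraries above the wild-type range. Amy2a1 ran in a nearly fixed proportion to Amy1 in normalized reads, with no correction for length, at 22.7% to 26.2% of its level in knockout and 22.4% to 27.7% in wild type. Amy2a5 and Amy2b were far lower, with knockout medians of 15084 and 13270.5 and wild-type medians of 12888 and 9850. The split between amylase copies is uncertain, and with it the rank of Amy1 above Amy2a1. Of all 50-base stretches of its GENCODE M21 transcripts, Amy2a1 shares 94.9% with other genes, Amy2a5 53.5%, Amy2b (annotated there as a pseudogene) 40.2% and Amy1 33.3%, most of it (31.8%) with transcripts of Rnpc3. The labels do not say how reads with several matches were counted.

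Among the lipid-digesting genes, Pnlip, the main triglyceride lipase, had 228059.6, 1900495 and 3761917 normalized reads (lowest, median, highest of 10) in knockout libraries and 229559, 1430857 and 2833245 in wild-type libraries. The groups overlapped over most of this range. Its cofactor colipase (Clps), the bile salt-stimulated lipase Cel, the lipase-related genes Pnliprp1 and Pnliprp2 and the phospholipase Pla2g1b spanned normalized reads of 6602 (Pla2g1b in a wild-type library) to 1905946 (Cel in a knockout library), and each overlapped between the groups. Cpa1 (ENSMUSG00000054446), carboxypeptidase A1, which trims proteins from their C-terminal end, had 148496, 880467 and 2037879 in knockout and 138826, 887131 and 1585141 in wild type, so that the medians of the groups lay close together. Its partner for basic residues, Cpb1, had a median of 621122 in knockout and 571168 in wild type.

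Of the serine proteases, Cela2a, an elastase, had 253153, 1658565 and 3935383 in knockout and 260707, 1429946 and 3028895 in wild type. Ctrb1, the main chymotrypsinogen, had 330345, 2183137 and 4376858 in knockout and 314095, 1663132 and 3933365 in wild type. Prss2, the trypsinogen with the highest level per kilobase, had 167363, 843525 and 2109342 in knockout and 144521, 761558 and 1671513 in wild type. In all of these the groups overlapped, and knockout library 5 and wild-type library 12 were the lowest of their groups. Prss3, another trypsinogen, had the highest SD of log2 values over the libraries among the 32 genes, with normalized reads of 15569.7, 69769.9 and 228147 in knockout and 10376, 102448 and 224235 in wild type. Try5 had 111946, 420548 and 1342866 in knockout and 84551, 561093 and 1266064 in wild type, one of several trypsinogens whose median was lower in knockout. The trypsinogens lie in a cluster of near-identical copies, which share 7.83% (Prss2) to 66.1% (Prss3) of their 50-base stretches with other genes, so the split between them is uncertain too. Cela2a and Ctrc share 15.6% and 17.7% of theirs with each other, and Cela3b shares 19.2% with Cela3a. The remaining proteases Cela1, Ctrl, Prss1, Try4 and Try10 also overlapped between the groups.

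Rnase1, the secreted ribonuclease, had 25959, 146356 and 319954 in knockout and 26782, 145422 and 283846 in wild type, and Klk1, the kallikrein that releases kinins, had 10057, 47961 and 118710.4 in knockout and 8742, 43519 and 86239 in wild type. Both ranges overlapped almost wholly between the groups. Klk1 shares 24.0% of its 50-base stretches with other kallikrein genes. Gp2, the main membrane glycoprotein of the zymogen granule, had 26846, 163175 and 392409.6 in knockout and 25930.3, 143679 and 310737 in wild type, with 3 knockout libraries above every wild-type library. Zg16 and Sycn, which sit at the inner face of the granule membrane, had knockout medians of 151205 and 135877 and wild-type medians of 130150.5 and 144119.8.

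The transcription factors were orders of magnitude lower. Ptf1a (ENSMUSG00000026735) had 48.1, 149 and 686 normalized reads (lowest, median, highest of 10) in knockout libraries and 47.1, 186 and 426 in wild-type libraries, from 34 to 707 reads per library. The groups overlapped, with knockout library 2 alone above the wild-type range. Rbpjl (ENSMUSG00000017007) had 1086, 4390.3 and 8471 in knockout and 724, 2785 and 9441 in wild type, with 2 wild-type libraries below the knockout range and 1 above it. Bhlha15 (ENSMUSG00000052271) had 691, 1079.8 and 2007 in knockout and 673, 1195 and 2092 in wild type, almost the same range in both groups. Per kilobase of the longest protein-coding transcript in GENCODE M21, the mean level of Amy1 over the 20 libraries was 4438492 normalized reads and that of Ctrb1 2396426. On the same scale Rbpjl had 1573, Bhlha15 357 and Ptf1a 141. Even the most abundant factor per length thus lay far below the main enzymes. Summed enzymes exceeded summed transcription factors 2213- to 7541-fold in knockout libraries and 2585- to 9883-fold in wild-type libraries, in normalized reads. The log2 ratio of summed factors to summed enzymes averaged −12.14 ± 0.49 in knockout and −12.15 ± 0.53 in wild type (SD, n = 10 each), a difference far inside the spread.

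Setting knockout beside wild-type islets asked which acinar transcripts differed with the loss of P2Y14. With genotype as the only term, 0 of 32 acinar genes passed an adjusted p of 0.05 by limma, against 49 of 17482 genes (0.28%) over the whole table. None of the 32 had an unadjusted p under 0.05, a level that 1563 of the 17482 genes reached. edgeR (43 genes called, 0.246%) and DESeq2 (137 genes called, 0.784%) on the recovered whole reads also called 0 of 32, with 0 at an unadjusted p under 0.05 in each. Log2 fold changes of knockout over wild type ran from −0.30 for Ptf1a to 0.55 for Amy1. Of the 32 values, 26 were positive and 6 negative, with a median of 0.13 for the 26 enzymes and 0.08 for the 3 transcription factors, against −0.0022 over all tested genes. When libraries were scaled to the reads outside acinar genes, the medians were −0.04 for the enzymes and −0.09 for the transcription factors. That scaling moved the median of all genes to −0.17, so relative to it the enzymes were again slightly higher in knockout. Without knockout libraries 2 and 10, a choice made after seeing their P2ry14 reads, 0 of 32 passed by limma, and the medians were −0.13 for the enzymes and −0.04 for the transcription factors.

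The 3 highest log2 fold changes belonged to Amy1, Amy2a1 and Amy2b. Amy1 was the highest at 0.55 (SE 0.50, adjusted p = 0.774 by limma), with a 95% interval of −0.48 to 1.58. Amy2a1 stood at 0.52 (SE 0.46, adjusted p = 0.768 by limma) and Amy2b at 0.51. Rbpjl followed at 0.48 (SE 0.48, adjusted p = 0.801 by limma), with an interval of −0.51 to 1.46. The remaining amylase, Amy2a5, stood at 0.28, below Rbpjl, Pnliprp1 (0.33) and Pnliprp2 (0.28). At the other end, Ptf1a had −0.30 (SE 0.48, adjusted p = 0.883 by limma) and an interval of −1.29 to 0.69, and Try5 had −0.13 (−1.15 to 0.89). Of the other enzyme classes, 6 of 6 lipid-digesting genes were positive (median 0.24), 3 of 3 elastases (median 0.13) and 3 of 6 trypsinogens (median −0.03). Apart from Bhlha15 (SE 0.22, interval −0.38 to 0.55), standard errors were 0.45 to 0.54. The intervals of Amy1, Rbpjl and most enzymes thus include changes of 1 log2 unit or more, and these values do not show that the genotypes were alike.

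**Figure D3:**
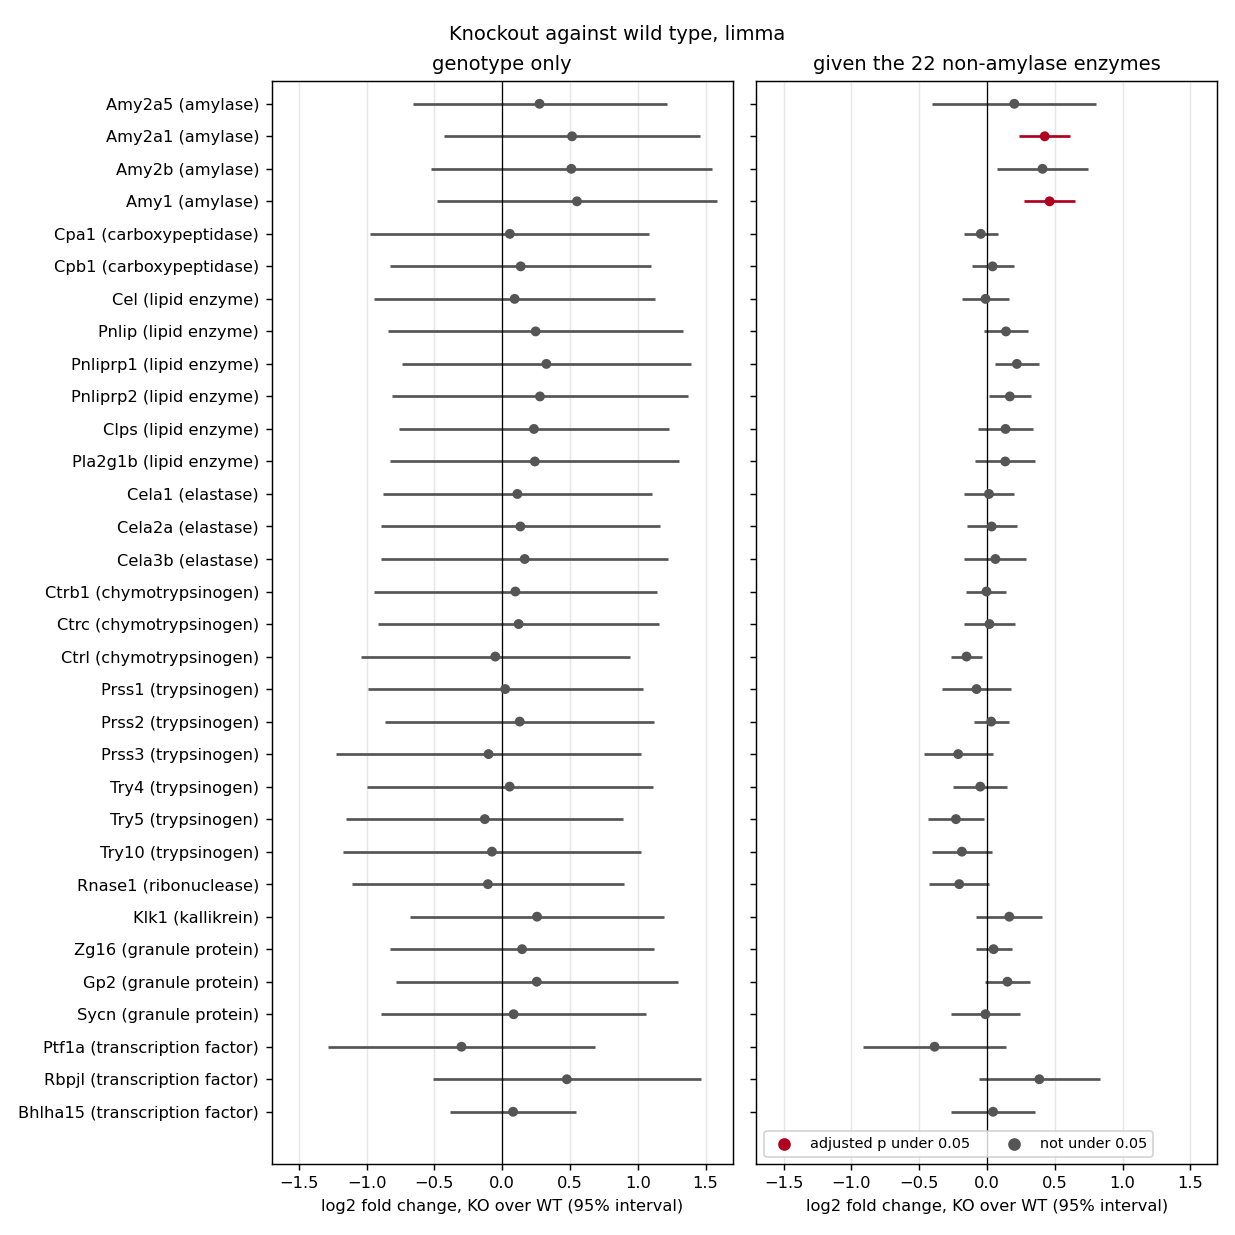
Log2 fold change of knockout over wild type with its 95% interval for the 32 acinar genes by limma, with genotype only (left) and given the mean log2 value of the 22 non-amylase enzymes (right). Red marks an adjusted p under 0.05, which Amy1 and Amy2a1 reach at the right, and no gene at the left.

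Libraries of the same genotype differed widely in these genes. Over the 20 libraries the SD of the log2 value was 1.06 to 1.29 for the enzymes (median 1.15) and 1.11 to 1.19 for the granule proteins, against a median of 0.44 over all tested genes. The highest library exceeded the lowest 12.3- to 23.2-fold for the enzymes. For Ptf1a and Rbpjl the SD was 1.13 and 1.16, as large as for the enzymes. Bhlha15 varied least, with an SD of 0.52 and a 3.11-fold range. Counting error was small beside this, at an SD of 0.13 for Ptf1a and at most 0.05 for the other 31 genes.

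The 32 genes varied over the libraries together. Against Cpa1, which shares no 50-base stretch with another gene, the other 25 enzymes had Pearson r of 0.775 to 0.995 in log2 values (median 0.978), Amy2a5 being lowest and Ctrl highest. The granule proteins had r of 0.973 to 0.992. These are correlations over 20 libraries that share their total acinar content. The mean of the non-amylase enzymes, without the gene itself, was then taken out of each gene by regression. The remaining SD was 0.10 to 0.70 for the enzymes (median 0.22, highest for Amy2a5) and 0.34 to 0.61 for the transcription factors.

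The transcription factors followed Cpa1 less tightly. Rbpjl had r = 0.882 and rho = 0.865, with a permutation p of 1e-05 for each, the smallest that 100000 resamples give. Ptf1a had r = 0.859 (permutation p = 1e-05) and rho = 0.844 (permutation p = 3e-05). Bhlha15 had r = 0.769 (permutation p = 8e-05) and rho = 0.805 (permutation p = 2e-05). These are among 31 relations with Cpa1, and with Benjamini-Hochberg adjustment over the 31 the p of r was 1.07e-05 for Rbpjl and Ptf1a and 8.27e-05 for Bhlha15. Without the libraries farthest from the Cpa1 median (knockout 5 and wild-type 12), r was 0.850 for Rbpjl, 0.826 for Ptf1a and 0.806 for Bhlha15. Within genotypes, r was 0.938 in knockout and 0.875 in wild type for Rbpjl, 0.822 in knockout and 0.967 in wild type for Ptf1a, and 0.715 in knockout and 0.828 in wild type for Bhlha15. The slopes differed more than the correlations. Per log2 unit of Cpa1, Rbpjl changed by 0.89 and Ptf1a by 0.84, but Bhlha15 by 0.35, with 0.33 to 0.41 when each library was left out in turn. The enzymes had slopes of 0.73 to 1.09. Per 1000000 normalized reads of Cpa1, Bhlha15 stood at 6694 in knockout library 5 and 5102 in wild-type library 12, the lowest in acinar RNA, where the median was 1610.2 in knockout and 1351 in wild type. On the same scale Ptf1a was 108, 165 and 496 (lowest, median, highest) in knockout and 179, 261 and 339 in wild type. Of the knockout libraries, 6 lay below every wild-type library and 3 above every one. This wider spread of Ptf1a in knockout was not tested.

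**Figure D4:**
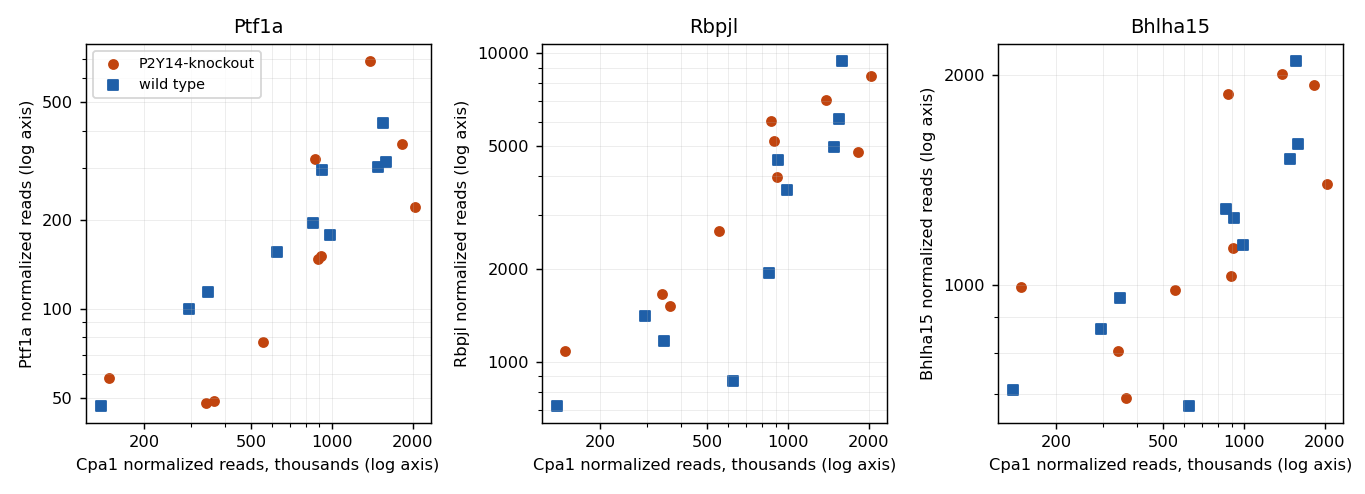
Normalized read counts of Ptf1a, Rbpjl and Bhlha15 against Cpa1 in 20 libraries, both axes on a log scale, with knockout as circles and wild type as squares. Ptf1a and Rbpjl rise with Cpa1 at slopes of 0.84 and 0.89 on the log2 scale, and Bhlha15 at 0.35. The ratio of Ptf1a to Cpa1 lies below every wild-type library in 6 knockout libraries and above every one in 3.

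Since the enzymes varied together, the fit over all genes was repeated with the mean log2 value of the 22 non-amylase enzymes as a covariate, a fit chosen after the data were seen. It asks whether a gene differs between genotypes at a given level of the other enzymes, and by construction the 22 enzymes average near 0 in it. Of the 32 acinar genes, 2 passed, both higher in knockout, against 85 of 17482 genes (0.486%) in either direction and 48 (0.275%) higher in knockout. Since 22 of the 32 form the covariate, these shares are not directly comparable. Amy1, Amy2a1 and Amy2b, left out of the covariate, already had the highest log2 fold changes of the 32 with genotype only. The p-values of the amylases below are thus no independent support for that difference. Amy1 was higher in knockout by 0.46 (SE 0.09, adjusted p = 0.0185 by limma) on the log2 scale, with an interval of 0.28 to 0.65. Amy2a1 was higher at 0.43 (SE 0.09, adjusted p = 0.0360 by limma), with an interval of 0.24 to 0.62. Amy2b had a similar value of 0.41 (SE 0.16, adjusted p = 0.361 by limma) and Amy2a5 a value of 0.20 (SE 0.29, adjusted p = 0.845 by limma), neither past the threshold.

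The amylase calls depended on the tool. edgeR (77 genes called, 0.44%) called both amylases as well. DESeq2 (214 genes called, 1.22%) called neither. With DESeq2 the adjusted p was 0.700 for Amy1 and 0.732 for Amy2a1, and in limma without the filter on low values it was 0.643 and 0.421, at log2 fold changes of 0.47 and 0.43 with DESeq2 and of 0.46 and 0.43 without the filter. Leaving out each library in turn, Amy1 was called in 20 of 20 fits, at 0.42 to 0.50, and Amy2a1 in 8 of 20 (those without knockout library 1, 4, 5, 6 or 10 or wild-type library 16, 18 or 20), at 0.39 to 0.47 with an adjusted p of at most 0.0802. Without both knockout libraries 2 and 10, Amy1 passed at 0.45 (adjusted p = 0.0385 by limma) and Amy2a1 did not at 0.41 (adjusted p = 0.0662 by limma).

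The same difference can be read library by library as a ratio to Cpa1. Amy1 per Cpa1 was 9.31, 11.3 and 17.1 (lowest, median, highest of 10) in knockout libraries and 6.83, 8.73 and 10.1 in wild-type libraries. Of the 10 knockout libraries 9 lay above every wild-type library, and 7 of the 10 wild-type libraries lay below every knockout library. Amy2a1 per Cpa1 was 2.20, 2.89 and 3.97 in knockout and 1.67, 2.22 and 2.45 in wild type, also with 9 knockout libraries above the wild-type range. Amy2b per Cpa1 was 0.0108, 0.0150 and 0.0234 in knockout and 0.00479, 0.0126 and 0.0142 in wild type, with 6 above it. Amy2a5 per Cpa1 was 0.0101, 0.0185 and 0.0366 in knockout and 0.00451, 0.0200 and 0.0340 in wild type, with 1 above it. Taken against Cel, Prss2 or Ctrb1 in place of Cpa1, mean Amy1 ratios were 14.7 ± 3.00, 12.0 ± 2.19 and 5.15 ± 0.998 in knockout (SD, n = 10) and 10.6 ± 1.60, 8.87 ± 1.17 and 3.74 ± 0.528 in wild type (SD, n = 10). Against these, 7, 7 and 8 knockout libraries lay above every wild-type library, fewer than against Cpa1. The separation was not limited to amylases. Pnliprp1 per Cpa1 was 0.712, 0.914 and 1.06 in knockout and 0.641, 0.781 and 0.869 in wild type, with 9 knockout libraries above the wild-type range, and Pnlip per Cpa1 had 6 above it. The ratios use the same reads as the fit and are a description.

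**Figure D5:**
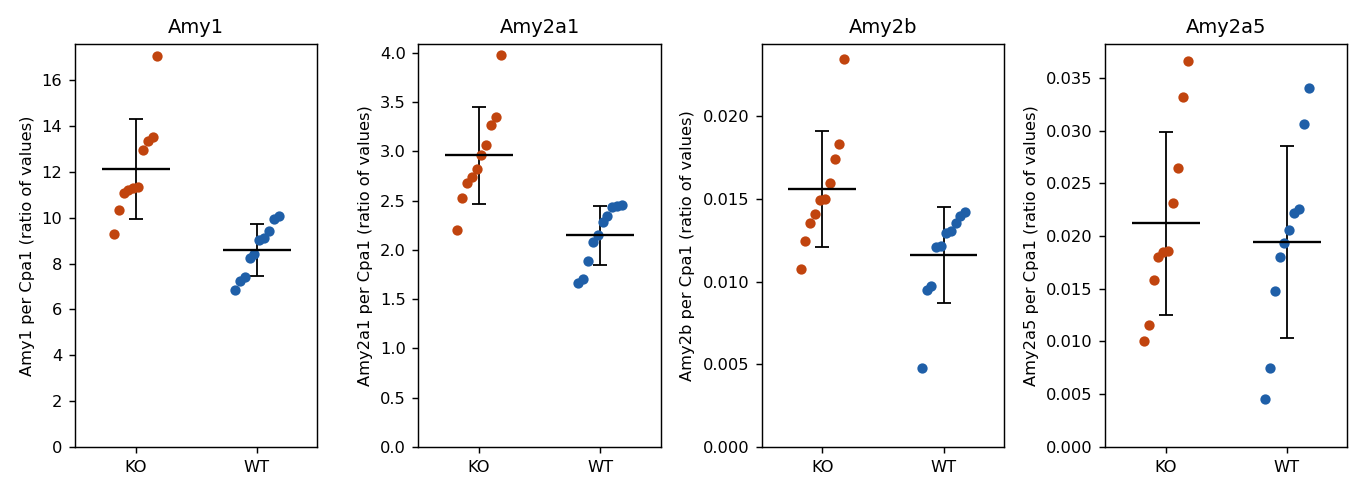
Ratio of each amylase to Cpa1 (normalized reads over normalized reads) in knockout and wild-type libraries, 10 points each, with the mean as a horizontal line and the SD as a bar, each panel on its own scale from 0. For Amy1 and Amy2a1, 9 of 10 knockout points lie above every wild-type point, and for Amy2a5 the groups overlap.

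The 4 amylases and Cpb1 are the acinar genes annotated on chromosome 3, which also carries P2ry14. Given the other enzymes, Cpb1, itself part of the covariate, stood at 0.04 (SE 0.07, adjusted p = 0.881 by limma). Markers of other islet cells were spread unevenly over the same libraries. The 7 markers of alpha, delta and PP cells were all read in every library. Their summed level was 643473 to 1999107 in knockout and 1430219 to 2568657 in wild type, with 6 knockout libraries below every wild-type library. Most of this sum was Gcg, with a mean of 1118087 in knockout and 1573443 in wild type. Of the 7, 0 passed in either fit by limma, 6 had negative values, and the median was −0.54. The part of chromosome 3 and of these markers in the amylase difference was not tested.

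Outside the amylases, none of the 32 genes passed by limma given the 22 enzymes. Since the covariate is the mean of these enzymes, positive values in some of them go with negative values in others by construction. Pnliprp1, the lipid-digesting gene with the highest value, stood at 0.22 (SE 0.08, adjusted p = 0.312 by limma). The trypsinogen Try5 had −0.23 (SE 0.10, adjusted p = 0.422 by limma). Ctrl, a chymotrypsin-like protease, had −0.15 (SE 0.05, adjusted p = 0.316 by limma). Unadjusted p-values under 0.05 were reached by 7 of 32 genes (Amy1, Amy2a1, Amy2b, Ctrl, Pnliprp1, Pnliprp2 and Try5), against 1827 of 17482 over the table. Ptf1a had −0.39 (SE 0.25, adjusted p = 0.616 by limma) with an interval of −0.91 to 0.14, Rbpjl had 0.39 (SE 0.21, adjusted p = 0.540 by limma) with −0.06 to 0.83, and Bhlha15 had 0.04 (SE 0.15, adjusted p = 0.946 by limma) with −0.27 to 0.36. Ptf1a and Rbpjl, partners in the PTF1 complex, had values of opposite sign, neither past the threshold, and the difference between them was not tested.

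A further 34 genes of the acinar programme were listed beside the 32, including other secreted products, receptors for secretagogues, ion channels and regulators. With genotype only, 0 of 34 passed by limma, with 22 positive and 12 negative values, a median of 0.12 and 1 unadjusted p under 0.05. Among the smallest p, none adjusted under 0.05, were those of the potassium channel gene Kcnn4 (log2 fold change 0.73), the GATA factor gene Gata6 (−0.27) and the muscarinic receptor gene Chrm3 (−0.29). Given the 22 enzymes, 0 of 34 passed, and the smallest adjusted p was that of Erp27, a chaperone-like protein of the endoplasmic reticulum, at 0.28 (SE 0.07, adjusted p = 0.0585 by limma). DESeq2 called Erp27 in that fit.

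Outside the 32, the genes whose log2 values ran closest to the mean of the secreted enzymes over 20 libraries were ranked among 11484 protein-coding genes. The first 10 included 2210010C04Rik, the aquaporin gene Aqp12, the pancreatic disulfide isomerase gene Pdia2, Erp27, Tmed6 of the vesicle-cargo family, the glycine-metabolism gene Gcat, Gm10334, the zymogen granule gene Cuzd1 and the sarcosine dehydrogenase gene Sardh. Their r ran from 0.993 to 0.980, as a description of libraries that share acinar content. Levels of those named spanned Sardh, at 1066 ± 689.6 in knockout and 1069.8 ± 677 in wild type, to 2210010C04Rik, at 581864 ± 379272 in knockout and 539625 ± 323282 in wild type (SD, n = 10 each). Gm10334 shares 65.1% of the 50-base stretches of Prss3 and the split of reads between them is uncertain. By the same measure, 107 genes ranked above Ptf1a, 80 above Rbpjl and 228 above Bhlha15, whereas none ranked above Cpa1, Ctrb1, Prss2 or Zg16.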

How the data were processed

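RNA-seq of pancreatic islets was deposited as 1 table for 10 knockout and 10 wild-type libraries made with TruSeq RNA v2, a kit that does not mark strand. The values are a signal unit, gene read counts that the authors divided by a DESeq size factor per library. Mouse build mm9, DESeq 1.16.0, Cufflinks 1.3.0, Bowtie 0.9.9, TopHat 1.3.3 and FastQC are listed in the submitters' processing notes, with no role or order. Which program counted the reads, with which annotation, and how it treated multiple matches is not stated in the labels. Dividing each column by its step returned whole reads for 100% of values within 0.05 reads, and these were used by edgeR 4.0.16 and DESeq2 1.42.0. Knockout columns carry the numbers of the labels, and wild-type columns are numbered 11 to 20 where the labels use 1 to 10, so wild-type numbers name columns only.

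The main test was limma 3.58.1 (R 4.3.3; eBayes with trend) on log2(value + 1), pseudocount 1, for the 17482 genes whose mean reached 10, with genotype as the only term and Benjamini-Hochberg adjustment over all of them. Fold changes are on that scale. The step was tested on simulated data. The fit given the 22 non-amylase enzymes, its alternatives and the ratios to Cpa1 were chosen after seeing the data. Correlations and the permutation test of P2ry14 used 100000 resamples (two-sided) and ran on numpy 2.4.6, pandas 2.3.3 and scipy 1.17.1 under Python 3.11.15. Depth limits the low genes most. The intervals given with fold changes come from the limma fits and reflect the spread between libraries. The SD given for counting error covers counting error only. Names, chromosomes and lengths came from GENCODE M21 and promoters from RefSeq (GRCm38.p6), both matched by gene and not by mm9 coordinates. GENCODE M21 named 23950 of 26211 identifiers.

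The members and lists were chosen with earlier results of these data known. Ranges are given for Cpa1, the transcription factors, the member with the highest mean of each role, the 2 smallest p in each direction, members past the threshold and the largest and smallest SD. Of the other acinar genes, the 4 with the smallest p were chosen, and outside the members the 10 protein-coding genes with a mean of at least 100 most correlated with the mean log2 enzyme value; 1 gene of each choice is not reported here. The alternatives were pseudocounts of 0.5 and 10, no filter or a mean of at least 100, TMM, scaling to reads outside acinar genes, edgeR, DESeq2 and each library left out in turn. The fit without knockout libraries 2 and 10 was added after seeing the data.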

Additional observations from a re-analysis of the deposited data

Results flagged for a closer look

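Knockout library 2 had 686 normalized reads of Ptf1a, while the other 9 knockout libraries had 48.1 to 360. The gap to the next library was 0.511 of the whole knockout range, above Dixon's critical value at the 95% level for groups of this size. Gap and range were taken in normalized reads, where high values stand farther apart than on the log2 scale of the fits. Wild-type libraries had 47.1 to 426. Knockout library 2 was also high in Bhlha15 (2007 normalized reads, the highest of the knockout group) and had 33.9% of its reads in the secreted enzymes. This was the single high or low library found in 72 groups examined, and chance flags about 1 in 20 groups.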

How the results depend on the processing

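In each fit with genotype only, 0 of 32 acinar genes passed. The count over all genes was 49, against 29 with a mean of at least 100, 137 with DESeq2 and 27 to 74 with 1 library left out (27 without knockout 4, 32 without knockout 8 or 9, 31 without wild-type 19, 74 without knockout 6). Scaling to reads outside acinar genes gave 38 calls, 9 higher and 29 lower in knockout, against 28 higher and 21 lower. Under it these log2 fold changes turned negative: Cpa1 −0.12, Cpb1 −0.037, Cel −0.081, Cela1 −0.061, Cela2a −0.039, Cela3b −0.0073, Ctrb1 −0.076, Ctrc −0.052, Prss1 −0.15, Prss2 −0.044, Try4 −0.12, Zg16 −0.027, Sycn −0.089, Bhlha15 −0.093. Prss1 and Try4 also turned negative with edgeR (−0.0089 and −0.032) and DESeq2 (−0.0056 and −0.027). Without knockout libraries 2 and 10, whose P2ry14 lay in the wild-type range (added after seeing the data), the values that turned negative were Cpa1 −0.25, Cpb1 −0.13, Cel −0.17, Pnlip −0.0078, Pnliprp2 −0.026, Clps −0.019, Cela1 −0.0999, Cela2a −0.12, Cela3b −0.13, Ctrb1 −0.17, Ctrc −0.17, Prss1 −0.26, Prss2 −0.15, Try4 −0.25, Klk1 −0.11, Zg16 −0.11, Gp2 −0.079, Sycn −0.20, Bhlha15 −0.038. With 1 library left out, signs turned within these ranges: Cpa1 −0.20 to 0.31, Cpb1 −0.0975 to 0.37, Cel −0.15 to 0.37, Pnlip −0.011 to 0.53, Clps −0.019 to 0.51, Pla2g1b −0.045 to 0.50, Cela1 −0.13 to 0.37, Cela2a −0.11 to 0.40, Cela3b −0.079 to 0.45, Ctrb1 −0.16 to 0.36, Ctrc −0.13 to 0.40, Ctrl −0.30 to 0.20, Prss1 −0.22 to 0.26, Prss2 −0.12 to 0.37, Prss3 −0.42 to 0.14, Try4 −0.20 to 0.30, Try5 −0.40 to 0.089, Try10 −0.39 to 0.15, Rnase1 −0.35 to 0.13, Zg16 −0.11 to 0.40, Sycn −0.16 to 0.34, Bhlha15 −0.0035 to 0.18. The enzyme median ran from −0.11 without wild-type library 12 to 0.39 without knockout library 5, and that of the transcription factors from −0.0035 to 0.18. The amylases, Pnliprp1 and Rbpjl were positive, and Ptf1a negative, in all these fits. Given the 22 enzymes, 85 genes were called, against 153 with scaling outside acinar genes, 214 with DESeq2 and 49 to 122 with 1 library left out (49 without knockout 4, 56 without knockout 9). Of the acinar genes 2 were called, against 0 without a filter, 0 with DESeq2, 1 without a mean trend in eBayes, 1 without knockout libraries 2 and 10, and 1 to 2 with 1 library left out. Of the other acinar genes 0 were called, against 1 with DESeq2 and 0 to 1 with 1 library left out. Bhlha15 in that fit was −0.076 with scaling outside acinar genes and −0.041 to 0.10 with 1 library left out. The cause of these changes was not tested. Scaled outside acinar genes, the SD of log2 values was 0.83 to 1.11 for the enzymes. The log2 ratio of Amy1 to Cpa1 differed by 0.44 to 0.54 with 1 library left out and by 0.46 with Cel in place of Cpa1. The share of reads in the enzymes differed by −0.203 to 3.24 percentage points, and the log2 ratio of factors to enzymes by −0.12 to 0.10. Correlations with Cpa1 ran from 0.837 to 0.877 for Ptf1a, 0.855 to 0.931 for Rbpjl and 0.738 to 0.816 for Bhlha15. No paired analysis was possible because the wild-type columns carry the numbers 11 to 20, which no knockout column shares.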
